A study of Mus musculus with 6 samples.

Results

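The antiviral interferon-stimulated genes are a set of 39 mouse genes, chosen by symbol, whose products sense viral RNA, carry the interferon signal or block viral replication inside cells. Probes on the array were given gene symbols through their RefSeq accessions, and 36 of the 39 genes had a named probe. All 36 were well above background on all 6 arrays and were tested among 13496 genes. Mx1, Mx2 and Rnf213 had no probe that matched through the gene table and are not analysed here.

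Expression was measured in crypts isolated from mouse intestines, the pockets of the lining that hold its stem cells. The 3 knockout samples were Villin-Cre; Arid1a f/f, in which Cre recombinase under the promoter of the epithelial gene Villin recombines Arid1a, which encodes a subunit of a chromatin-remodelling complex. The 3 control samples were Arid1a f/f, with the same floxed alleles and no Cre named in their labels, and both groups were of mixed strain. There was 1 one-colour array per sample. The labels give no age, and nothing in them ties samples to separate mice, so the p-values reflect sample-to-sample spread that may be technical in part. Sex-linked genes, given below, put male and female samples in each group. Whether samples of the same sex came from separate mice is not stated. The titles and descriptions put VA1, VA2 and VA3 in the knockout group (knockout 1 to 3 below) and A1, A2 and A3 in the control group (control 1 to 3). For knockout 2 and control 3, source name and genotype give the opposite group. Values are log2 processed signals relative to the array's 75th percentile. Fold changes are log2 differences of knockout minus control, given ± SE (n = 3 in each group). They were tested with limma, two-sided, and p-values were adjusted by the Benjamini-Hochberg method over all 13496 genes. A gene is called higher or lower at an adjusted p under 0.05.

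Type I and type III interferons bind surface receptors that activate the Janus kinases, which phosphorylate transcription factors such as Stat2. Stat2 and Irf9 are subunits of the complex ISGF3, which binds the interferon-stimulated response element in the promoters of antiviral genes, while interferon gamma acts mainly at gamma-activated sites. Intestinal epithelial cells can respond to interferons, and many of the induced products are themselves sensors or factors of the same pathway.

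Arid1a, the gene targeted by Cre, read 2.20, 2.07 and 2.51 on knockout arrays 1 to 3, against 3.71, 3.47 and 4.01 on control arrays 1 to 3. Knockout 2 and control 3 each lay with the group of their title, and Arid1a fell by 1.47 ± 0.21 on the log2 scale (2.77-fold, adjusted p = 0.00733). A single probe measured it, and where it lies relative to the recombined exons was not tested. Knockouts 1 and 2 and controls 1 and 2 shared slide 1, and knockout 3 and control 3 shared slide 2. Probes well above background made up 41.7% to 54.7% of the 56605 on an array. Y-linked genes and Xist put knockouts 1 and 3 and control 1 as male and knockout 2 and controls 2 and 3 as female. The epithelial markers Epcam, Vil1 and Cdh1 were well above background on all 6 arrays, with Epcam at 5.35, 5.60 and 5.93 on the knockout arrays, against 5.16, 5.0 and 5.50 on the control arrays.

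Antiviral genes were mostly higher in knockout crypts. Of the 36 tested, 20 were called higher and 0 lower, where 7.28% of all genes were called higher and 7.62% lower. At an unadjusted p under 0.05, 28 were higher and 1 was lower, against 16.3% and 18.0% of all genes. All 3 knockout arrays lay above all 3 control arrays for 29 members, below them for 1 (Oas3), and the groups overlapped for the other 6; among all genes the groups were apart in these directions for 19.0% and 20.7%. The fold change was positive for 34 members, against 49.2% of all genes, and at least 2-fold for 14, against 7.26%. Its median over the members was 0.94, with quartiles of 0.52 and 1.34 and a range of -0.69 to 2.76, while the median of all genes was -0.01.

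**Figure D1:**
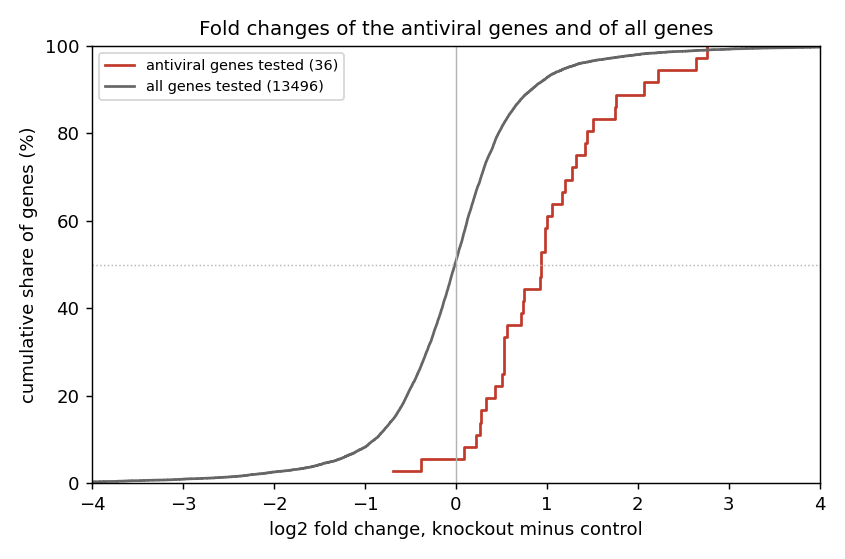
Cumulative share of genes (y axis, %) against the log2 fold change, knockout minus control (x axis), for the 36 antiviral genes tested (red) and all 13496 genes (grey). The axis runs from -4 to 4, and 80 genes, none of them antiviral, lie beyond it. The red curve crosses 50% at 0.94 and the grey curve at -0.01.

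The members were higher on each knockout array and not on 1 alone. Their median deviation from the control mean was 0.92, 0.72 and 1.08 on knockouts 1 to 3, and -0.07, 0.04 and 0.04 on controls 1 to 3. Knockout 2 lay nearest to the controls, though well apart from them, and it was the highest knockout array for 5 members, with 11 on knockout 1 and 20 on knockout 3. The median SD of a member was 0.25 among knockout arrays and 0.19 among control arrays, beside 0.30 and 0.20 over all genes. On slide 1 the members' median difference was 0.81 and on slide 2, with 1 array per group, 1.03, and 32 of the 36 were positive on both slides, against 39.7% of all genes.

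**Figure D2:**
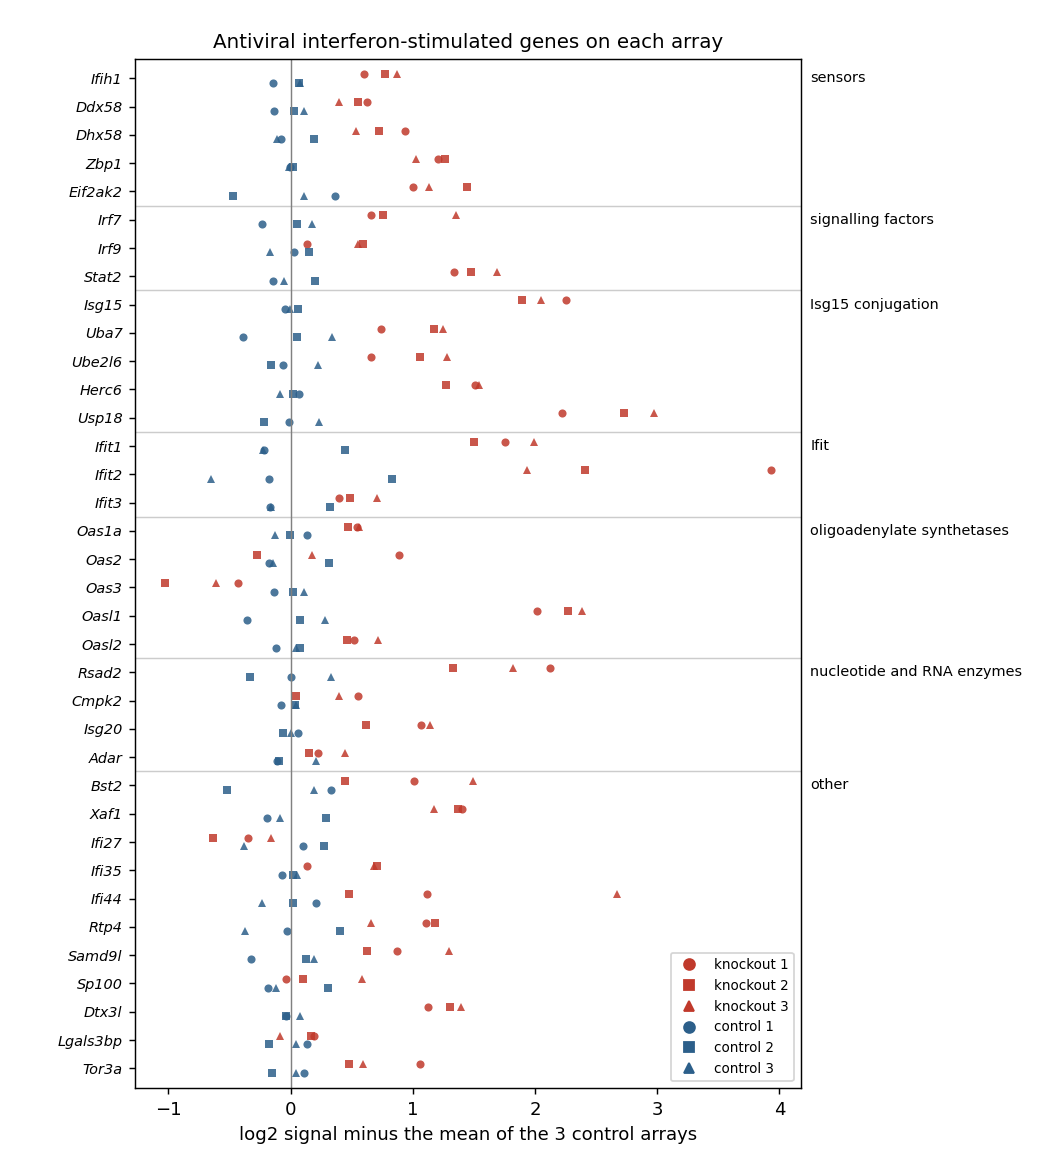
Each antiviral gene (rows, ordered by role) on the 3 knockout arrays (red) and the 3 control arrays (blue), as log2 signal minus the mean of the control arrays (x axis). Circles, squares and triangles are replicates 1, 2 and 3. Red lies right of blue without overlap for 29 genes and left of it for Oas3.

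The number called depended on single arrays. Without knockout 1, 2 or 3 the members called higher were 22, 11 and 13, beside 12.6%, 3.41% and 4.91% of all genes, and without control 1, 2 or 3 they were 11, 11 and 10, beside 2.61%, 3.24% and 3.42%. The 10 members called in all 6 of these fits were Zbp1, Stat2, Isg15, Herc6, Usp18, Ifit1, Oasl1, Rsad2, Xaf1 and Dtx3l. Without both arrays whose labels contradict each other, 4 members were called, Isg15, Oasl1, Rsad2 and Usp18, beside 1.31% of all genes, and 22 had a positive change at an unadjusted p under 0.05, beside 10.0% of all genes. The members' median fold change without those arrays was 1.09. Grouped by source name and genotype instead, 0 members and 0 of all genes were called in limma; 0 members and 207 of all genes passed an unadjusted p of 0.05, and the members' median was 0.35. With sex as a block 12 members were called higher, beside 5.16% of all genes, and Ifih1, Dhx58, Eif2ak2, Irf7, Ube2l6, Ifit2, Rtp4 and Samd9l lost their calls.

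**Figure D3:**
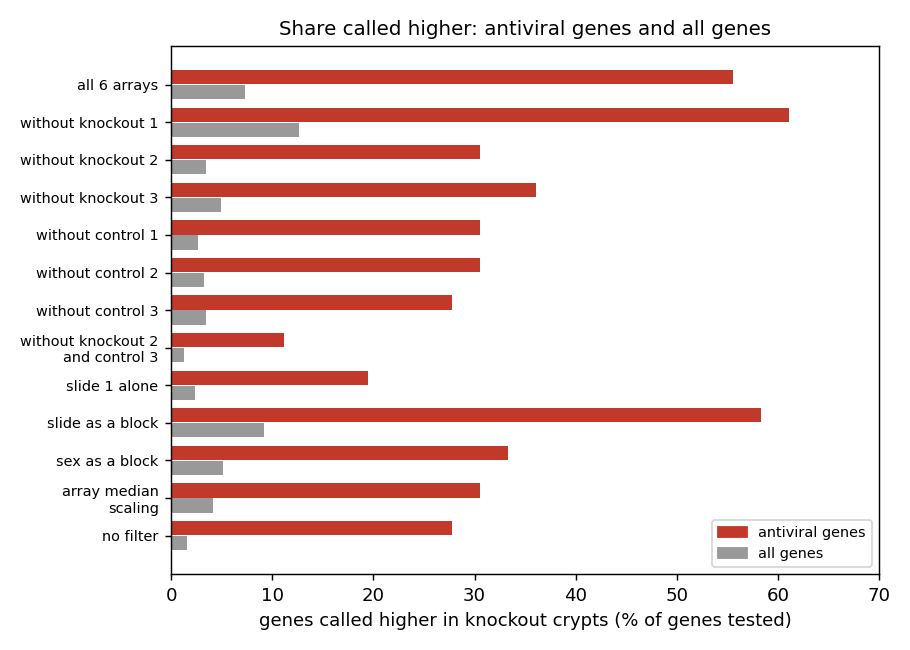
Share of genes called higher in knockout crypts (x axis, % of genes tested) among the antiviral genes (red bars) and among all genes (grey bars), for all 6 arrays and for other choices of arrays, blocks, scaling and filter (rows). The red bar is longer than the grey bar in each row, at 55.6% against 7.28% with all 6 arrays and 11.1% against 1.31% without knockout 2 and control 3. Not all alternatives are drawn. Grouped by source name and genotype, which is not among the rows, 0 antiviral genes and 0 of all genes were called higher.

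Promoter sequences of 5 members with the core letters of the interferon-stimulated response element, and of Oasl1, which lacks them, are shown because their fold changes differ widely. They are the 250 bases before the RefSeq transcription start in assembly GRCm38.p6, 5′ to 3′ on the gene's strand. Capitals mark GAAA, any 2 bases and GAAA again or, for the other strand, TTTC, any 2 bases and TTTC. The Isg15 sequence is chr4:156200819-156201068 on the minus strand, Ifit1 chr19:34640639-34640888 on the plus strand, Ifit3 chr19:34583279-34583528 on the plus strand, Rsad2 chr12:26456453-26456702 on the minus strand, Oas3 chr5:120777660-120777909 on the minus strand and Oasl1 chr5:114922990-114923239 on the plus strand.
Isg15: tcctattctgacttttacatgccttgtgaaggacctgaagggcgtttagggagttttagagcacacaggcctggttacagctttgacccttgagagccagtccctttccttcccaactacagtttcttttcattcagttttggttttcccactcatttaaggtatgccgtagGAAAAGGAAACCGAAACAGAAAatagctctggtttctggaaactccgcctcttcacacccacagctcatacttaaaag
Ifit1: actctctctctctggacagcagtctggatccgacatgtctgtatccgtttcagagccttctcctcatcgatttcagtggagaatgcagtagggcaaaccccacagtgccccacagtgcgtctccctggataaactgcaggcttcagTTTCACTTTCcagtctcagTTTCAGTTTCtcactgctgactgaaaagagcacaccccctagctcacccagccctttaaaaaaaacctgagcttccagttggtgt
Ifit3: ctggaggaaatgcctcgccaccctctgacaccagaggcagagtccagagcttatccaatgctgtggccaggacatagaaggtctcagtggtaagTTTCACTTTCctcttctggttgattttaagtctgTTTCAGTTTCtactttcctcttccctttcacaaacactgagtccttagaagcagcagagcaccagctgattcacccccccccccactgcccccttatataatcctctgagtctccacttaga
Rsad2: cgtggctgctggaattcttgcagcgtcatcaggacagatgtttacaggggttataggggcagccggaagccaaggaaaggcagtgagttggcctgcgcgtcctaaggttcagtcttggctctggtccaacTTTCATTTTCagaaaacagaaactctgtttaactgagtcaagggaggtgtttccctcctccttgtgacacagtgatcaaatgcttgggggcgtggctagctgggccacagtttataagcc
Oas3: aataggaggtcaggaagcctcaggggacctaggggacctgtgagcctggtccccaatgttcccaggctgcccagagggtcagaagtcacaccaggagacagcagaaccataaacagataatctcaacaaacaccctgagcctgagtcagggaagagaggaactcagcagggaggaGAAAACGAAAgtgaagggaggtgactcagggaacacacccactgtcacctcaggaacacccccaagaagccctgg
Oasl1: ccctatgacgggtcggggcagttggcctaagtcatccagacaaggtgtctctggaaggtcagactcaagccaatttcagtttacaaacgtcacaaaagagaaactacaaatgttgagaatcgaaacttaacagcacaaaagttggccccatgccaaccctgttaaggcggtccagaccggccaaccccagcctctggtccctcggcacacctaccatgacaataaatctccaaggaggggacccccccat

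Isg15 held 3 overlapping matches that began 78, 72 and 66 bases before the start. In Ifit1 there were 2, at 104 and 85 bases, in Ifit3 there were 2, at 156 and 122 bases, in Rsad2 1, at 120 bases, and in Oas3 1, at 75 bases. Over windows from 250 bases before to 50 after the start, 30 of the 39 members had a sequence, and 11 of these 30 (36.7%) held that core on either strand, against 3.99% of 27025 genes. The letters TTCNNNGAA, the core of the gamma-activated site, which reads the same on both strands, occurred in 7 members (23.3%), against 9.55% of genes. Both occurred in 3 members, and the 2 searches can share bases.

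The 11 members with the response element core were Bst2, Ddx58, Eif2ak2, Ifih1, Ifit1, Ifit3, Isg15, Oas1a, Oas3, Rsad2 and Stat2. Of these 11, 6 were called higher, with a median fold change of 0.98 and a range of -0.69 to 2.07. Of 18 tested members without the core, 10 were called higher, with a median of 0.94 and a range of 0.09 to 2.76, and 4 of 7 members that lack a window were. A match is a description of letters, and other forms of the element were not searched.

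Sensors of viral nucleic acid rose in knockout crypts, with 4 of 5 called. Zbp1, which binds left-handed double-stranded nucleic acid and can start necroptosis, read 5.78, 5.83 and 5.59 on knockout arrays 1 to 3, against 4.56, 4.59 and 4.55 on control arrays 1 to 3. The control arrays lay close together and all knockout arrays lay above them, and Zbp1 rose by 1.17 ± 0.15 (2.24-fold, adjusted p = 0.00515). Its second probe, fitted among all 26746 kept probes, rose by 1.72 (adjusted p = 0.0157). Eif2ak2 encodes PKR, the kinase that halts translation when it binds double-stranded RNA. It read 3.08, 3.52 and 3.21 in knockout crypts, against 2.44, 1.61 and 2.18 in control crypts, without overlap, a rise of 1.19 ± 0.25 (2.29-fold, adjusted p = 0.0269).

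The RIG-I-like receptors, cytoplasmic helicases that detect viral RNA, had fold changes under 1 on the log2 scale. Ifih1, which encodes MDA5, the sensor of long double-stranded RNA, read 3.76, 3.92 and 4.02 in knockout crypts, against 3.01, 3.22 and 3.24 in control crypts. It rose by 0.75 ± 0.16 (adjusted p = 0.0267). Dhx58, which encodes LGP2, a helicase without a signalling domain that modulates the other receptors, read 0.90, 0.69 and 0.50 in knockout crypts, against -0.12, 0.16 and -0.15 in control crypts, a rise of 0.73 ± 0.18 (adjusted p = 0.0397). In both genes the lowest knockout array lay above the highest control array. Ddx58, which encodes RIG-I, the sensor of RNA with a 5′ triphosphate, read 4.28, 4.21 and 4.05 in knockout crypts, against 3.52, 3.68 and 3.77 in control crypts. Its groups did not overlap, yet its fold change of 0.52 ± 0.15 did not pass (adjusted p = 0.0649), and its 4 probes gave 0.41 to 0.52. Leaving out single arrays kept Zbp1 called (adjusted p 0.00750 to 0.0319). Ifih1 kept its call only without knockout 1 (0.0177 to 0.118 over the 6 fits). Dhx58 lost its call without knockout 2 or any control (0.0436 to 0.149), and Eif2ak2 lost it without knockout 2 or 3 or control 2 or 3 (0.0235 to 0.0874). With sex as a block these 3 were not called (adjusted p = 0.0539 for Ifih1, 0.0802 for Dhx58 and 0.0613 for Eif2ak2).

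Of the 3 signalling factors, 2 rose. Stat2, the subunit of ISGF3 that carries its transactivation domain, read 4.40, 4.53 and 4.75 in knockout crypts, against 2.91, 3.25 and 3.01 in control crypts. More than 1 log2 unit separated the nearest arrays of the 2 groups, and Stat2 rose by 1.5 ± 0.17 (2.83-fold, adjusted p = 0.00410). A dimmer Stat2 probe, well above background on 5 of the 6 arrays, gave 0.81 ± 0.35, overlapped between groups and did not pass (adjusted p = 0.168 among single probes). Irf7, the factor that amplifies type I interferon production, read 7.53, 7.63 and 8.23 in knockout crypts, against 6.64, 6.93 and 7.05 in control crypts. It rose by 0.92 ± 0.23 (adjusted p = 0.0446), and its second probe gave 1.02 without passing (adjusted p = 0.0740 among single probes, where the first probe had 0.0565).

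Irf9, the DNA-binding subunit of ISGF3, read 3.45, 3.91 and 3.86 in knockout crypts, against 3.34, 3.46 and 3.14 in control crypts. Knockout 1 lay just below control 2, and the fold change of 0.43 ± 0.19 did not pass (adjusted p = 0.161). Stat2 was called without each array in turn (adjusted p 0.00499 to 0.0254). With single arrays left out, Irf7 kept its call only without knockout 1 (0.0265 to 0.157 over the 6 fits), where Irf9 gained one (0.0488 to 0.378). With sex as a block Irf7 was not called (adjusted p = 0.0841).

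All 5 genes of the Isg15 conjugation system rose, with a median fold change of 1.44. Isg15, the ubiquitin-like protein that is attached to newly made proteins and is also secreted, read 8.11, 7.75 and 7.91 in knockout crypts, against 5.81, 5.92 and 5.85 in control crypts. The arrays within a group lay close together and about 2 log2 units apart between groups. Isg15 rose by 2.07 ± 0.16 (4.19-fold, adjusted p = 0.00101), with a difference of 2.07 on slide 1 and 2.06 on slide 2. Usp18, the protease that removes Isg15 from its targets and also dampens signalling from the type I interferon receptor, read 4.90, 5.41 and 5.65 in knockout crypts, against 2.67, 2.46 and 2.91 in control crypts. It rose by 2.64 ± 0.24 (6.23-fold, adjusted p = 0.00169), without overlap between groups.

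The enzymes that attach Isg15 rose too, with fitted fold changes below those of the modifier and its protease; differences between genes were not tested. Uba7, the activating enzyme, read 5.22, 5.65 and 5.72 in knockout crypts, against 4.08, 4.52 and 4.82 in control crypts, a rise of 1.06 ± 0.24 (2.08-fold, adjusted p = 0.0351). Ube2l6, the conjugating enzyme, read 3.89, 4.3 and 4.51 in knockout crypts, against 3.17, 3.07 and 3.46 in control crypts, and rose by 1.0 ± 0.21 (2.0-fold, adjusted p = 0.0276). In both genes all knockout arrays lay above all control arrays. Herc6, the main Isg15 ligase in mice, read 0.06, -0.18 and 0.09 in knockout crypts, against -1.38, -1.43 and -1.53 in control crypts. It rose by 1.44 ± 0.15 (2.71-fold, adjusted p = 0.00305), the groups being more than 1 log2 unit apart. Isg15, Usp18 and Herc6 were called without each array in turn, with adjusted p-values of at most 0.00882, 0.0123 and 0.0191. Uba7 and Ube2l6 kept their calls only without knockout 1 (0.0192 to 0.114 and 0.0112 to 0.107 over the 6 fits), and Ube2l6 was not called with sex as a block (0.0563).

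The Ifit genes encode tetratricopeptide-repeat proteins that bind viral RNA and block its translation, and 2 of the 3 were called. Ifit1, which recognises RNA caps that lack methylation, read 4.36, 4.10 and 4.60 in knockout crypts, against 2.38, 3.05 and 2.38 in control crypts, a rise of 1.75 ± 0.24 (3.36-fold, adjusted p = 0.00720). Ifit2 had the highest fold change of all members and also the widest spread among the called ones. It read 1.71, 0.19 and -0.29 in knockout crypts, against -2.40, -1.39 and -2.87 in control crypts. The groups did not overlap, and Ifit2 rose by 2.76 ± 0.59 (6.77-fold, 95% interval 1.36 to 4.16, adjusted p = 0.0273), a call that was lost with sex as a block (adjusted p = 0.0569).

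Ifit3, which stabilises Ifit1 on RNA in human cells, read 1.31, 1.40 and 1.62 in knockout crypts, against 0.75, 1.24 and 0.76 in control crypts. Its lowest knockout array lay just above control 2, and its fold change of 0.53 ± 0.20 did not pass (adjusted p = 0.111). Relatives of Ifit1 and Ifit3 by symbol also lie on chromosome 19, and whether the probes tell these genes apart was not tested. Ifit1 was called without each array in turn (adjusted p at most 0.0355), while Ifit2 was not called without knockout 2, control 1 or control 3 (0.0207 to 0.0953 over the 6 fits).

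**Figure D4:**
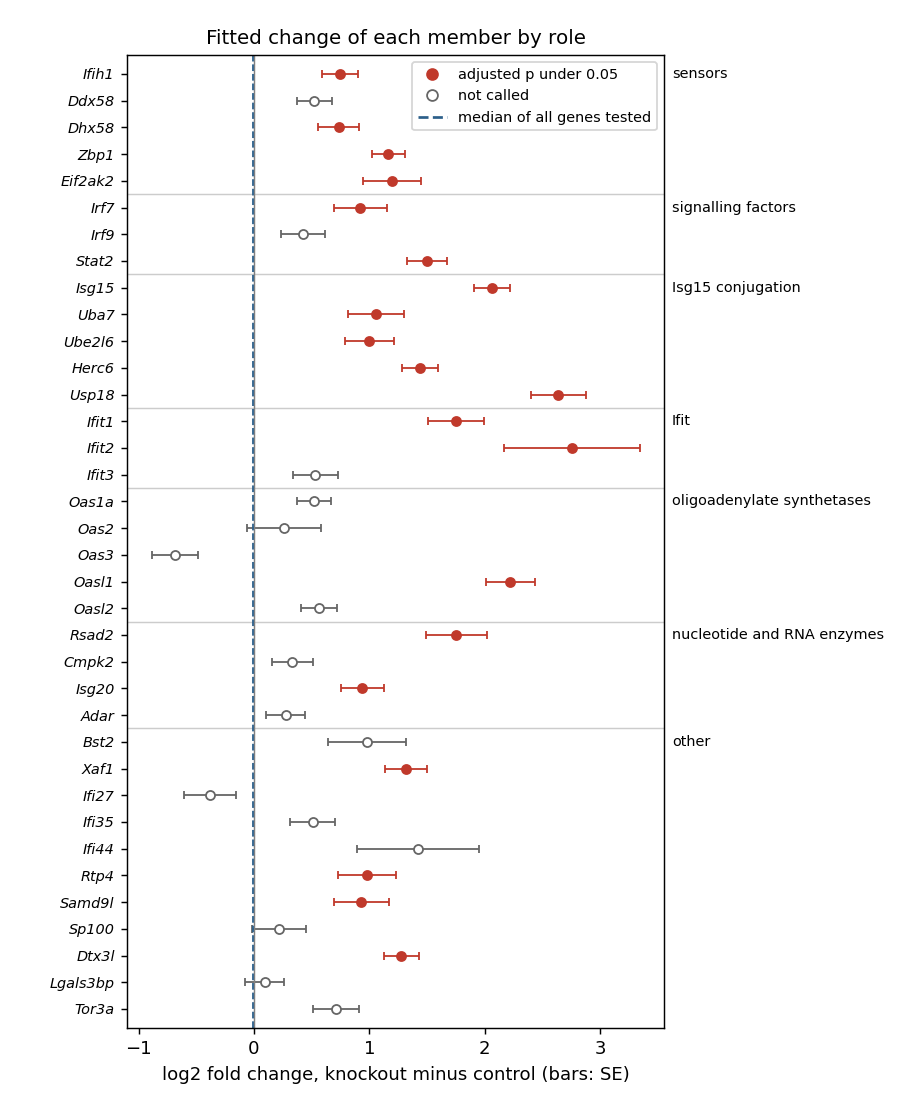
Log2 fold change, knockout minus control, of the 36 antiviral genes (rows, by role), with bars for the SE (n = 3 per group). Filled red points are the 20 genes at an adjusted p under 0.05, open points the other 16, and the dashed line is the median of all genes, -0.01. All 5 genes of Isg15 conjugation are filled, and 1 of 5 among the oligoadenylate synthetases.

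The oligoadenylate synthetase genes did not move as one. These enzymes make the 2′-5′-linked oligoadenylates that activate RNase L, while the Oasl proteins share the fold. Of the 5 members on chromosome 5, 1 was called higher and the median fold change was 0.52. Oasl1, which in mice represses translation of Irf7 mRNA, read 7.79, 8.04 and 8.15 in knockout crypts, against 5.41, 5.85 and 6.05 in control crypts. It rose by 2.22 ± 0.21 (4.67-fold, adjusted p = 0.00213), without overlap, and its second probe rose by 2.39 (adjusted p = 0.00396 among single probes). The call held without each array in turn (adjusted p 0.00353 to 0.0140).

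Oasl2, which keeps synthetase activity, read 5.38, 5.33 and 5.57 in knockout crypts, against 4.74, 4.93 and 4.91 in control crypts. Oas1a read 6.57, 6.49 and 6.59 in knockout crypts, against 6.16, 6.02 and 5.90 in control crypts. Both were above the controls on every knockout array but did not pass, with fold changes of 0.57 ± 0.15 (adjusted p = 0.0535) and 0.52 ± 0.15 (adjusted p = 0.0595). Oasl2 was called without knockout 1 (0.0454 to 0.197 over the 6 fits). Oas2 read 2.06, 0.89 and 1.34 in knockout crypts, against 0.99, 1.48 and 1.02 in control crypts. Its groups overlapped, and its fold change was 0.26 ± 0.32 (adjusted p = 0.587).

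Oas3, which in human cells is the synthetase that activates RNase L, was the member that lay below the controls. It read 0.19, -0.40 and 0.01 in knockout crypts, against 0.49, 0.64 and 0.73 in control crypts. Every knockout array was below every control array, but the fold change of -0.69 ± 0.20 did not pass (adjusted p = 0.0626). Oas3 was called lower without knockout 1 (adjusted p 0.0286 to 0.166 over the 6 fits). The within-slide differences were -0.67 and -0.72. The promoter sequences above show the response element core in Oas3 and none in Oasl1.

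Enzymes that act on nucleotides and RNA were divided, with 2 of 4 called. Rsad2 encodes viperin, which makes a chain-terminating ribonucleotide from CTP. It read 3.03, 2.24 and 2.73 in knockout crypts, against 0.91, 0.58 and 1.25 in control crypts, and rose by 1.75 ± 0.27 (3.37-fold, adjusted p = 0.00985). Its second probe rose by 2.0 (adjusted p = 0.00669 among single probes). Cmpk2, a mitochondrial nucleotide kinase whose gene lies beside Rsad2 on chromosome 12, read 3.02, 2.52 and 2.87 in knockout crypts, against 2.39, 2.50 and 2.51 in control crypts. Knockout 2 lay just above controls 2 and 3, and the fold change of 0.33 ± 0.18 did not pass (adjusted p = 0.231).

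Isg20, an exonuclease that degrades single-stranded RNA, read 0.90, 0.44 and 0.97 in knockout crypts, against -0.11, -0.23 and -0.16 in control crypts. It rose by 0.94 ± 0.19 (adjusted p = 0.0219), without overlap, and its second probe rose by 1.26 (adjusted p = 0.0163 among single probes). Rsad2 was called without each array in turn (adjusted p at most 0.0440), and Isg20 was not called without knockout 3 or any control (0.0238 to 0.0826 over the 6 fits).

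Adar, the adenosine deaminase that edits double-stranded RNA, gave different answers from its 2 probes, which carry the same accession. The brighter probe read 1.52, 1.44 and 1.74 in knockout crypts, against 1.18, 1.20 and 1.5 in control crypts. Control 3 lay between knockouts, and the fold change of 0.27 ± 0.17 did not pass (adjusted p = 0.291). The dimmer probe read 0.76, 0.77 and 1.04 in knockout crypts, against -0.23, -0.14 and 0.03 in control crypts. There the groups were apart, and the probe rose by 0.97 ± 0.17 (adjusted p = 0.0196 among single probes). Adar has transcripts from different promoters, one of them interferon-inducible, and which of them each probe detects was not tested.

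Among the 11 other members tested, 4 were called. Dtx3l, a ubiquitin ligase that works with the ADP-ribosyltransferase Parp9, read 4.69, 4.87 and 4.96 in knockout crypts, against 3.53, 3.52 and 3.64 in control crypts. The groups lay 1 log2 unit apart with little spread, and Dtx3l rose by 1.28 ± 0.15 (2.42-fold, adjusted p = 0.00427). Xaf1, a pro-apoptotic protein that binds the inhibitor XIAP, read 3.30, 3.27 and 3.07 in knockout crypts, against 1.70, 2.18 and 1.81 in control crypts, a rise of 1.32 ± 0.18 (2.49-fold, adjusted p = 0.00715). Both were called without each array in turn, with adjusted p-values of at most 0.0280 and 0.0381.

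Rtp4, an interferon-induced chaperone of receptors that also restricts flaviviruses, read 5.43, 5.50 and 4.97 in knockout crypts, against 4.29, 4.72 and 3.94 in control crypts. Samd9l, an inhibitor of translation and of cell growth, read 3.59, 3.34 and 4.01 in knockout crypts, against 2.40, 2.85 and 2.91 in control crypts. Neither overlapped, and they rose by 0.98 ± 0.25 (adjusted p = 0.0468) and 0.93 ± 0.24 (adjusted p = 0.0453). Rtp4 kept its call only without knockout 3 (0.0454 to 0.147 over the 6 fits) and Samd9l only without knockout 1 (0.0470 to 0.154). With sex as a block neither was called (adjusted p = 0.0753 for Rtp4 and 0.0877 for Samd9l).

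Bst2 encodes tetherin, which holds budding virions at the cell surface. It read 2.78, 2.22 and 3.27 in knockout crypts, against 2.10, 1.26 and 1.97 in control crypts, apart by a narrow gap, and its fold change of 0.98 ± 0.34 did not pass (adjusted p = 0.0947). Ifi44, a cytoplasmic interferon-induced protein, read 1.05, 0.42 and 2.61 in knockout crypts, against 0.14, -0.04 and -0.30 in control crypts. Knockout 3 stood far above the other two, the difference was 0.68 on slide 1 and 2.90 on slide 2, and the fold change of 1.42 ± 0.53 did not pass (adjusted p = 0.114). Both genes were apart between groups without passing.

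Tor3a, an interferon-responsive ATPase of the endoplasmic reticulum, read 1.48, 0.90 and 1.01 in knockout crypts, against 0.52, 0.27 and 0.46 in control crypts. Ifi35, a leucine-zipper protein, read 6.53, 7.10 and 7.07 in knockout crypts, against 6.32, 6.41 and 6.44 in control crypts. Every knockout array lay above every control array for both. Their fold changes of 0.71 ± 0.20 (adjusted p = 0.0594) and 0.51 ± 0.20 (adjusted p = 0.126) did not pass, and Ifi35 was called without knockout 1 (0.0208 to 0.316 over the 6 fits).

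The remaining 3 members overlapped between groups. Ifi27, a mitochondrial protein, read 4.18, 3.89 and 4.37 in knockout crypts, against 4.63, 4.80 and 4.15 in control crypts, with a fold change of -0.38 ± 0.23 (adjusted p = 0.275). Control 3 was its lowest control array, so that the difference was -0.68 on slide 1 and 0.22 on slide 2. Sp100, a component of nuclear bodies, read 0.89, 1.03 and 1.51 in knockout crypts, against 0.74, 1.23 and 0.80 in control crypts. Control 2 lay between the knockout arrays, and the fold change was 0.22 ± 0.23 (adjusted p = 0.532). Lgals3bp, a secreted galectin-binding glycoprotein, read 6.62, 6.60 and 6.35 in knockout crypts, against 6.57, 6.25 and 6.47 in control crypts. The arrays of the groups alternated, with a fold change of 0.09 ± 0.17 (adjusted p = 0.723) and a 95% interval of -0.31 to 0.49.

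Second probes gave the same signs as the first. Of the members, 11 had more than 1 kept probe, and all probes of a gene had the same sign in all 11. Of 13 such further probes, 5 were called higher in the fit over single probes, where 5.84% of all probes were. These were the second probes of Zbp1, Oasl1, Rsad2, Isg20 and Adar.

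Other genes of the interferon pathway were counted in a list of 43 ligands, receptors, factors, sensors and feedback genes. Of 34 tested, 10 were called higher and 0 lower, beside the 7.28% and 7.62% of all genes, with a median fold change of 0.53. At an unadjusted p under 0.05, 15 were higher and 2 were lower, Mavs and Tlr7, which are named here after their values were seen. Without knockout 1, 2 or 3 the number called higher was 12, 6 and 10, beside 12.6%, 3.41% and 4.91% of all genes. Without control 1, 2 or 3 it was 6, 7 and 7, beside 2.61%, 3.24% and 3.42%. It was 2 without both arrays with contradicting labels, beside 1.31%. Each of these counts of higher genes includes Ifng, which was kept for the fit only through the knockout arrays. The counts at an unadjusted p under 0.05 and without knockout 3 also include Ifna1, kept in the same way. Of the 34, 31 were well above background on all 6 arrays, and 9 of these were called higher, with a median fold change of 0.44. In a fit of only such genes, 7.66% of 11969 were called higher.

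Among the ligands, Ifng, the gene of interferon gamma, did not reach well above background on the control arrays. It read -0.38, -1.44 and -0.15 in knockout crypts, against -5.63, -4.88 and -6.19 in control crypts, and was at least 8.68-fold higher in knockout crypts. It was kept for the fit only through the knockout arrays, so no test is given for it. That bound sets the mean of the knockout arrays against, on each control array, the higher of the probe's own signal and the lowest signal well above background. Ifna1, which encodes an interferon alpha, was likewise kept only through the knockout arrays. It read -2.93, -2.62 and -4.03 in knockout crypts, against -4.59, -4.50 and -4.25 in control crypts, at least 1.45-fold higher. Ifna5, of the same family, was well above background on 2 knockout arrays and 1 control array. It read -3.86, -3.29 and -3.28 in knockout crypts, against -3.98, -4.66 and -4.01 in control crypts, and its fold change of 0.74 ± 0.26 did not pass (adjusted p = 0.104, unadjusted p = 0.0275). In both genes all knockout arrays lay above all control arrays; they are named after their values were seen, and whether the probes tell the similar interferon alpha genes apart was not tested. Ifnb1, which encodes interferon beta, stayed below that flag on all 6 arrays. Ifnl3, an epithelial type III interferon, overlapped, with a fold change of -0.02 ± 0.28 (adjusted p = 0.970), and Ifnl2 had no probe matched through the table.

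Of the receptor genes 1 of 6 rose. Ifnar2, a chain of the type I interferon receptor, read 2.75, 3.09 and 2.91 in knockout crypts, against 2.15, 2.23 and 2.41 in control crypts, and rose by 0.65 ± 0.16 (adjusted p = 0.0443). Its second, dimmer probe rose by 1.89 ± 0.23 (adjusted p = 0.00599 among single probes, where the first had 0.0596). Ifnar2 kept its call only without knockout 1 (0.0253 to 0.167 over the 6 fits) and lost it with sex as a block (0.0618). Ifnar1, Ifnlr1 and Ifngr1 did not pass, with fold changes of 0.56 ± 0.26 (adjusted p = 0.173), 0.65 ± 0.25 (0.128) and 0.44 ± 0.22 (0.206).

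Irf1, an interferon-induced transcription factor, read 7.39, 7.93 and 7.85 in knockout crypts, against 6.51, 6.39 and 6.73 in control crypts, and rose by 1.18 ± 0.20 (adjusted p = 0.0141). Its second, dimmer probe gave 1.06 ± 0.32 without passing (adjusted p = 0.0783 among single probes, where the first had 0.0197). Irf3, the factor that starts interferon transcription and is regulated by phosphorylation, had a fold change of -0.12 ± 0.17 (adjusted p = 0.632). Socs1, the feedback inhibitor of Janus kinases, read 3.71, 3.37 and 3.49 in knockout crypts, against -0.07, 0.56 and 0.11 in control crypts. Its groups were almost 3 log2 units apart, and it rose by 3.32 ± 0.21 (adjusted p = 0.000595). Jak2, Irf8, the adaptor Myd88, the DNA exonuclease Trex1 and the nucleotide hydrolase Samhd1 also rose, by 1.17 ± 0.24, 1.29 ± 0.15, 0.83 ± 0.16, 1.70 ± 0.19 and 1.66 ± 0.25 (adjusted p 0.00350 to 0.0241). Irf1 lost its call without knockout 2 or control 1 or 2 (0.00631 to 0.0636 over the 6 fits). Jak2 and Myd88 lost theirs without knockout 2 or any control (0.0107 to 0.0924 and 0.0242 to 0.0838) and with sex as a block (0.0533 and 0.0502).

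**Figure D5:**
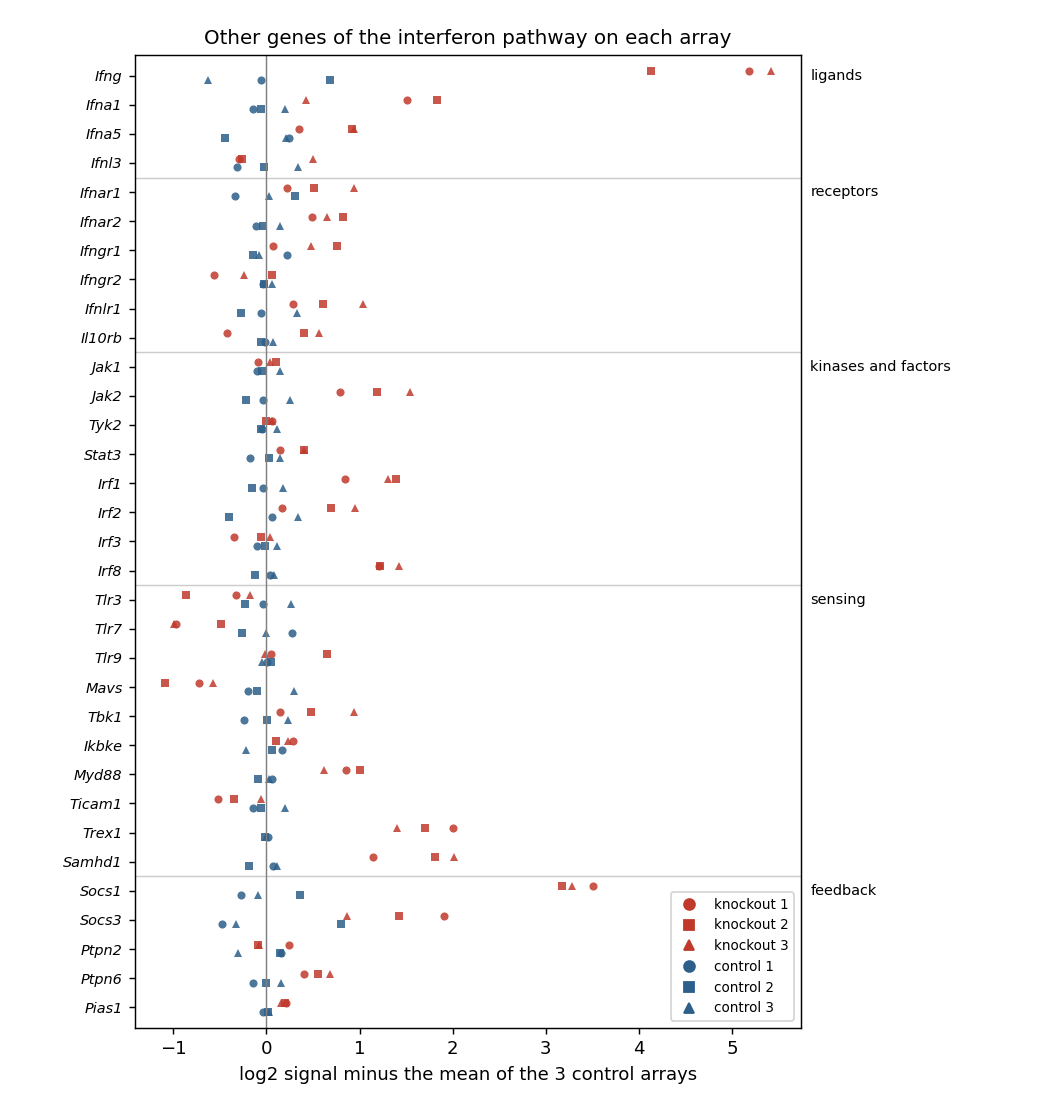
Other interferon pathway genes that are reported here (rows, by step) on the 3 knockout arrays (red) and the 3 control arrays (blue), as log2 signal minus the mean of the control arrays (x axis), with circles, squares and triangles for replicates 1, 2 and 3. Ifng and Socs1 lie farthest right; the control values of Ifng are not well above background.

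Markers of the cell types that crypt preparations can hold were set beside the members. Crypt RNA is a bulk sample, in which fewer cells of a type and less RNA per cell cannot be told apart. Of 10 epithelial markers 0 were called higher and 1 lower, with a median fold change of 0.33. The called marker was Cdx1, at -1.14 ± 0.27 (adjusted p = 0.0376), while Cdx2 did not pass at -0.55 ± 0.16 (adjusted p = 0.0626). Every knockout array lay below every control array for Cdx1 and Cdx2, and above for Krt18 and Cldn7, neither of them called. Of 15 markers of T cells and intraepithelial lymphocytes, all tested, 0 were called by limma (1 higher and 1 lower at an unadjusted p under 0.05), with a median fold change of 0.67. Their mean deviation from the control mean was 0.69, -0.47 and 0.82 on knockouts 1 to 3, and -0.87, 0.45 and 0.42 on controls 1 to 3. Knockouts 1 and 3 lay above all controls for these markers, and knockout 2 lay below controls 2 and 3. For the antiviral genes that mean was 0.98, 0.84 and 1.07 on knockouts 1 to 3, and -0.06, 0.06 and -0.001 on controls 1 to 3. The summed signal of the lymphocyte markers, in units of each array's 75th percentile, was 66.8 to 150.1 on knockout arrays and 69.5 to 166.1 on control arrays. Gzma alone made up 61.7% to 76.0% and 43.9% to 66.5% of it. Ptprc, the pan-leukocyte marker, had a fold change of 0.67 ± 0.49 (adjusted p = 0.365), Cd3e of 0.12 ± 0.31 (0.804) and Cd8a of 0.01 ± 0.53 (0.993). The pair under an unadjusted p of 0.05 were Cd8b1 and Cd4, named after their values were seen. Cd8b1 was at 1.52 ± 0.46 (adjusted p = 0.0680), with every knockout array above every control array. Cd4 was at -1.47 ± 0.54 (adjusted p = 0.111), with every knockout array below. A second Cd4 probe was not kept, and what the kept probe detects was not tested.

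Of 10 macrophage and dendritic cell markers 7 were tested. Cd68 rose by 0.87 ± 0.16 (adjusted p = 0.0191), Lyz2 was lower at -3.43 ± 0.76 (adjusted p = 0.0311), and Siglech, a marker of plasmacytoid dendritic cells, had a fold change of 0.62 ± 0.31 (adjusted p = 0.203). Adgre1, the macrophage marker, was not well above background on the 6 arrays. The summed signal of the 7 was 201 to 434 times the 75th percentile on knockout arrays and 144 to 237 times on control arrays. Siglech and Itgam, neither of them called, made up 98.3% to 99.2% of it on knockout arrays and 93.8% to 97.8% on control arrays. A second probe of each was not kept, and what the bright probes detect was not tested. The other 5 markers summed to 3.37 to 3.47 on knockout arrays and 4.75 to 8.94 on control arrays. Lyz2, the brightest of the 5 on control arrays, read -0.17, -0.96 and -3.10 in knockout crypts, against 2.72, 2.10 and 1.24 in control crypts. The lower sum of the 5 on knockout arrays comes from Lyz2. Cd68, Csf1r and C1qb had positive fold changes, and Itgax read at most -2.05 on any array. What the Lyz2 probe detects was not tested. Csf1r and C1qb had fold changes of 0.27 ± 0.20 and 0.30 ± 0.28. Itgax had -1.23 ± 0.80, and none of these was called. Of 6 B and plasma cell markers 3 were tested and 0 called (1 lower at an unadjusted p under 0.05), and of 8 stromal and vessel markers 1 was tested and not called. The part of these cells in the antiviral genes' change was not tested.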

How the data were processed

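RNA from 6 crypt samples was labelled with Cy3 and hybridised to one-colour Agilent arrays, per the labels. Spot intensity values are the authors' output of Agilent Feature Extraction. Its version is 12.0.3.1 in the file headers, while the submitters' processing notes give 11.5.1.1. Per the file headers the processed intensity has the background of its own array subtracted. The deposited series table holds log2 values on the 75th percentile scale, centred on each probe's median, as its match to the scanner values showed. Its column medians were -0.0717, 0.216 and -0.184 for knockouts 1 to 3 and 0.196, 0.0610 and -0.325 for controls 1 to 3, and it served as an alternative.

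Control and outlier-flagged spots were left out, spots of a probe averaged, and log2 values of the processed signal centred on the 75th percentile of their array. No spot was saturated (0 on each array). Probes were named through unversioned accessions in a RefSeq table of GRCm38.p6 (33767 of 56605), kept if well above background on at least 3 arrays (26746, of which 19392 were named), and the brightest per gene was used. limma 3.58.1 (R 4.3.3) was fitted to all 13496 genes with group as the only term. Single probes were fitted likewise. Groups followed title and description. Alternatives were the contradicting labels, replicate number, slide or sex as a block, the background correction (normexp, offset 50, on median signals), scaling, filter, choice of probe, variance model, thresholds and each array left out. The fit was tested on simulated data in which 200 genes were changed. It recovered 15 of 50 genes at a 2-fold change, 29 of 50 at 2.83-fold, 43 of 50 at 4-fold and 45 of 50 at 8-fold. There were 5 false calls. All 39 members are named by role, with pathway genes given by role or by call and markers by a short list. The result of 1 pathway gene is counted in its list but not reported here. The members, lists and rules were chosen with earlier results of these data known. Promoter windows came from RefSeq. The number of arrays limits the precision.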

Additional observations from a re-analysis of the deposited data

How the results depend on the processing

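The members called higher were 20. They numbered 4 without both arrays with contradicting labels, 0 grouped by source name and genotype, 7 on slide 1 alone, 12 with sex as a block, 11 with array median scaling and 10 with no filter on dim probes. The shares of all genes called higher there were 1.31%, 0%, 2.36%, 5.16%, 4.15% and 1.56%. At an adjusted p under 0.01, 10 members were called, beside 2.14% of all genes, and 13 with at least a 2-fold change, beside 4.83%. Leaving out single arrays gave 10 to 22. The members called lower were 1, Oas3, with normexp, array median scaling or array quality weights, and 0 to 1 without single arrays. Their median fold change was 0.35 grouped by source name and genotype and 0.69 with array median scaling, where the median of all genes moved to -0.26.

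Genes called higher and lower among all were 177 and 143 without the contradicting arrays, 0 and 0 grouped by source name and genotype (207 at an unadjusted p under 0.05), 319 and 370 on slide 1 alone, and 366 and 331 with no filter. Array quality weights gave 2219 and 2547, an adjusted p under 0.01 gave 289 and 224, and leaving out single arrays 352 to 1704 and 286 to 2319. Median scaling called 560 higher and 1389 lower, sex as a block 643 lower, and a 2-fold minimum 652 higher.

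Pathway genes called higher were 2 without the contradicting arrays, 0 grouped by source name and genotype, and 6 on slide 1 alone, with no filter and at an adjusted p under 0.01, with 6 to 12 without single arrays. The shares of all genes in that order were 1.31%, 0%, 2.36%, 1.56% and 2.14%, with 2.61% to 12.6% without single arrays. These pathway counts, except the 0, include Ifng, which was kept for the main fit only through the knockout arrays. Pathway genes called lower were 1 with the replicate block, the slide block, normexp, the mean of probes, a trended robust variance or array weights. They were 2 with quantile or median scaling, the percentile over probes detected on all arrays, or the 2 other filters, and 0 to 1 without single arrays. Arid1a's log2 fold change was -1.23 without the contradicting arrays (adjusted p = 0.0979) and -0.18 grouped by source name and genotype (adjusted p = 0.999).

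Signs turned for Irf9 (-0.084), Oas3 (0.070), Rtp4 (-0.055), Ifngr1 (-0.12) and Ifnl3 (0.38) grouped by source name and genotype. Oas2 was -0.057 with array weights and -0.052 to 0.53 without single arrays, negative without knockout 1. Sp100 was -0.028 on slide 1 alone and -0.031 with median scaling, and Lgals3bp -0.0046 with quantile and -0.16 with median scaling. Ifnl3 was 0.27 without the contradicting arrays, 0.0011 with sex as a block, 0.012 with normexp and -0.28 to 0.15 without single arrays, positive without knockout 1 or 2 or control 3. The cause was not tested.

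With the replicate number as a block, 22 members were called higher, Bst2 and Tor3a being added, and 9.85% of all genes. Same-numbered arrays deviated together with correlations of 0.246, 0.080 and 0.352 across genes, and each array correlated best with its own number. The labels do not say that numbers pair samples. Replicates 3 were alone on slide 2, replicates 1 were both male and replicates 2 both female. Pairing cannot be told apart from slide and sex here. Slide as a block gave 21 members. With 3 arrays per group, fold changes under 1 on the log2 scale mostly missed the threshold or lost it without 1 array.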

Other observations

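Relatives of the members by symbol, outside the 39, were counted after the data were seen: genes whose symbol begins with Ifi and a number, Ifit, Ifitm, Oas or Isg. Of 28 with a probe, 16 were tested, 6 were called higher and 0 lower (7 and 3 at an unadjusted p under 0.05), beside 7.28% and 7.62% of all genes, and their median fold change was 0.01. Ifi47, an interferon-inducible GTPase, read 6.41, 6.96 and 6.80 in knockout crypts, against 4.76, 4.91 and 4.44 in control crypts, a rise of 2.02 ± 0.21 (limma adjusted p = 0.00300). Ifit1bl1, a relative of Ifit1, read 5.21, 5.62 and 5.64 in knockout crypts, against 2.86, 3.81 and 3.26 in control crypts, and rose by 2.17 ± 0.27 (adjusted p = 0.00535). The other called relatives were Ifit3b (1.0 ± 0.23), Oas1g (0.80 ± 0.20), Ifit1bl2 (0.70 ± 0.17) and Oas1f (0.59 ± 0.14).

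Ifitm genes, which encode membrane proteins that block virus entry, were not among the genes that rose. Ifitm3 read 4.32, 2.45 and 1.84 in knockout crypts, against 4.98, 4.39 and 4.5 in control crypts. Every knockout array lay below the controls, with a wide spread, and the fold change of -1.75 ± 0.61 did not pass (adjusted p = 0.0977). Ifitm7 gave -1.93 ± 0.55 (adjusted p = 0.0599), also with every knockout array below the controls. Ifi27l2a, a relative of Ifi27, read 2.95, 0.27 and 2.79 in knockout crypts, against -0.59, -0.18 and -1.16 in control crypts, and did not pass (2.65 ± 0.72, adjusted p = 0.0531). Knockout 2 was the lowest knockout array for it. Probes of close copies may not tell them apart.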
